A study of Mus musculus with 6 samples.

Results

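The genes described here are the 46 that make up the core of the DNA replication machinery: the proteins that mark and license replication origins, the helicase that unwinds them and the factors that start it, the polymerases, the sliding clamp and its loader, the single-strand binding protein, the enzymes that finish the lagging strand and the enzyme that makes deoxynucleotides. They were taken by name from a given list whose rule uses no measured value, although the list was drawn up with earlier results of these data known, and all 46 were found among the 31876 genes with an isoform used. All 46 also averaged 1 FPKM or more in 1 of the conditions, as did 13268 genes in all, which were tested. FPKM counts the fragments of a transcript per unit of its length and per unit of sequencing.

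The RNA came from the clonal line TT-FHAgo2, mouse embryonic stem cells whose Argonaute 2 (Ago2) depends on doxycycline. Ago2 is the protein that microRNAs guide to transcripts. All cells had been kept in 0.1 µg/mL doxycycline on gelatin with serum and leukemia inhibitory factor, and were then either given 2.5 µg/mL for 48 h, a dose that per the labels restores Ago2 to its wild-type level, or left without it for 96 h. There were 2 polyA libraries per condition, strand-specific and made by the UTP method, and the files number them 0 and 1. The comparison asked how transcript levels differ when Ago2 expression is withdrawn. The conditions also differ in the drug itself and in its duration, which cannot be told apart from Ago2 here, and all cells belong to 1 clonal line. The 2 spike-in libraries of the series were not analysed here.

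DNA replication starts at origins that are bound by the origin recognition complex. In G1 phase this complex, with Cdc6 and Cdt1, loads the Mcm2-7 helicase in an inactive form, a step called licensing, and in S phase 2 kinases turn the loaded helicase on by recruiting Cdc45 and the GINS complex. Polymerase alpha with primase lays down primers, polymerases epsilon and delta extend them on the leading and lagging strand, and the clamp PCNA, loaded by replication factor C, keeps them on the template. Many of these genes are transcribed under the control of E2F factors, which bind short GC-rich sites near the start of transcription. Mouse embryonic stem cells are known for a short G1 phase and a large share of cells in S phase.

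E2F sites were searched in the annotated promoters because many of these genes are known for this regulation and because the sequences show how the sites lie. A promoter window of 300 bases, 250 before and 50 after the annotated start, was given by RefSeq (build GRCm38.p6) for 38 of the 46 genes, in 46 windows. The letters searched on both strands were TTTCCCGC, TTTCGCGC, TTTGCCGC and TTTGGCGC. At least 1 of them stood in a window of 15 of the 38 genes (39.5%), against 463 of 9365 tested genes with a window (4.94%) and 2.27% of all 32841 windows. In 4 of the 38 genes, a window held 2 or more matches (Mcm3, Mcm5, Mcm6 and Rfc3). The windows of Orc1, Orc3, Mcm5, Mcm6 and Mcm3 are shown with the matches in capitals, and those of Orc2 and Rfc4, the genes with the largest falls, as windows that hold none of these letters; the second annotated window of Orc2 holds none either. Each is printed along the gene's own strand.
Orc1: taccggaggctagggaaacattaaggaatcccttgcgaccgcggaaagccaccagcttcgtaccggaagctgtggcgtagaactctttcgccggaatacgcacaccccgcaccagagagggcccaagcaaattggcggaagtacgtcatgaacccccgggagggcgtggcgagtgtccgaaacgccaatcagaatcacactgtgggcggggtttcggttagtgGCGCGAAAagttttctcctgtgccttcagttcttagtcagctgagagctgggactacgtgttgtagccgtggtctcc
Orc3: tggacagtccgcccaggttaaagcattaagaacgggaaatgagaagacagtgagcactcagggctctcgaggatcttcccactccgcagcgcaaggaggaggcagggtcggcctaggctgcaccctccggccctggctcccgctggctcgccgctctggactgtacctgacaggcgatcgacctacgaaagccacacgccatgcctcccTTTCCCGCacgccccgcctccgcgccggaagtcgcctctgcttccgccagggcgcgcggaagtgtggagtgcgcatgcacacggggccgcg
Mcm5: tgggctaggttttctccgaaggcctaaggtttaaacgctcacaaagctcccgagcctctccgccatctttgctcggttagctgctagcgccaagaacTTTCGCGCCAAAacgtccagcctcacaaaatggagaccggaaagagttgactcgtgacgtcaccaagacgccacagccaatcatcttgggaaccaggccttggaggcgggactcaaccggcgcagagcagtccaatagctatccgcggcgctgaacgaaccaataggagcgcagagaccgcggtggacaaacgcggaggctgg
Mcm6: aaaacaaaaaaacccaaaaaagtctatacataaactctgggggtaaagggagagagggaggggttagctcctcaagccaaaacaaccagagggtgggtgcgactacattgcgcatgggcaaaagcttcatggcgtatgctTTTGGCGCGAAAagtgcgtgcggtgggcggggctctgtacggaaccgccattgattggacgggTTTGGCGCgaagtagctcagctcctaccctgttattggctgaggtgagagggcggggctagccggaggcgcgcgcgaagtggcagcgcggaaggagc
Mcm3: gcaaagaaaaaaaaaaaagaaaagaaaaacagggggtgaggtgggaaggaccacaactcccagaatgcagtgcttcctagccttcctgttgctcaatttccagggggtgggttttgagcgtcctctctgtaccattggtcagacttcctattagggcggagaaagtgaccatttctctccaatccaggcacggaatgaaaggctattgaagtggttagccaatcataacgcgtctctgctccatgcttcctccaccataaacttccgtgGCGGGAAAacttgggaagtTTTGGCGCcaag
Orc2: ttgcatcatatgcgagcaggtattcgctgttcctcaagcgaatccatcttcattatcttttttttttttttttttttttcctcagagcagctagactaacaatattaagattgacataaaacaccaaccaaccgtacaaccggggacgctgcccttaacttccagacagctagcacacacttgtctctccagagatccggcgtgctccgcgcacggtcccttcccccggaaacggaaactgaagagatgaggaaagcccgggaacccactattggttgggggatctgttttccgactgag
Rfc4: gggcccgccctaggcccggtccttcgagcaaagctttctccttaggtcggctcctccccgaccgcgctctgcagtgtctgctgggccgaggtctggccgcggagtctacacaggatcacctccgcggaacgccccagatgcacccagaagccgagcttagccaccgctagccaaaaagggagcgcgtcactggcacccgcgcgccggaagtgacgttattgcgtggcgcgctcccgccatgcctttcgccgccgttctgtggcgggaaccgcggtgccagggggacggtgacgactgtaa

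These windows lie at chr4:108579204-108579503 (plus strand) for Orc1, chr4:34614893-34615192 (minus) for Orc3, chr8:75109259-75109558 (plus) for Mcm5, chr1:128359656-128359955 (minus) for Mcm6, chr1:20820263-20820562 (minus) for Mcm3, chr1:58505060-58505359 (minus) for Orc2 and chr16:23127681-23127980 (minus) for Rfc4. Counted from the annotated start as base 1, with no base 0, the match begins at -27 in Orc1 and at -41 in Orc3. In Mcm5 matches on both strands begin at -153 and -149 and share bases, and Mcm6 has such a pair at -110 and -106 and a further match at -47. Mcm3 has its matches after the start, at 20 and 39. The other genes with a match were Cdc6, Cdt1, Gins3, Lig1, Mcm8, Pola1, Pold1, Pold3, Pole2 and Rfc3. Of the 15 genes with a match, 5 were lower without doxycycline by the test described next, as were 10 of the 23 genes whose window held none. The CCAAT box (CCAAT on either strand) stood in a window of 24 of the 38 genes (63.2%, against 43.4% of tested genes), and the cell cycle element searched as TTTGAA or TTCGAA in 9 (23.7%, against 16.0%). These matches describe the letters in the windows only.

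Summed FPKM over the isoforms used was lower in both libraries without doxycycline (0.449 M and 0.485 M; M, mega) than in both with it (0.509 M and 0.535 M), a difference that TPM removes by construction. In both libraries numbered 1, low FPKM values fell on whole reads (within 0.1 read) in 96.7% and 96.8% of cases, at totals of 46.8 M and 47.3 M fragments. Each share is the highest over the range of library totals and length corrections tried. Chance for it is thus above the 20% of a single setting. In the libraries numbered 0 this highest share was 41.9% and 40.2%, so their depth is unknown. Where it is known, a transcript of 2000 nt with 3 reads would stand at 0.035 FPKM, far under the level of any replication gene. This floor covers counting error only. Ago2 itself stood at 35.9 ± 0.996 FPKM (SD, n = 2) with doxycycline and 28.7 ± 0.112 without, a log2 change of -0.32 (SE 0.08, limma adjusted p = 0.0293). The call was lost in 7 of 13 alternatives, among them each of the 4 fits that left out a library, and transgene and endogenous transcripts are not separated in the files. All 8 embryonic stem cell markers were present, with summed levels of 4087 and 4589 FPKM with doxycycline and 4216 and 4811 without. Of these, Zfp42 and Utf1 fell and Nanog rose, and whether this bears on the results that follow was not tested. The 7 fibroblast markers summed to between 2.04 and 2.59 FPKM in every library, with Col3a1 and Postn at 0, and the 6 primitive endoderm markers to between 1.75 and 2.45. Among the latter, Gata4 rose from 0.656 to 1.33 FPKM (limma adjusted p = 0.0373), while Sox7 went from 0.618 to 0.0516 and Dab2 from 0.797 to 0.224, both too low to be tested. The 6 trophoblast markers summed to between 20.5 and 22.4 FPKM, of which Tfap2c made up between 18.5 and 20.7. Nothing in the labels says whether cultures were separate, and p-values thus reflect the spread between these libraries alone, which may be technical.

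Of the 46 replication genes, 17 fell without doxycycline, none rose, and 29 did not pass the test (limma on log2(FPKM + 0.5), 2 against 2 libraries, two-sided, Benjamini-Hochberg adjusted p under 0.05 over 13268 genes). The 17 are 37.0% of the 46, where 20.9% of all tested genes were lower and 19.4% higher by the same test. At an unadjusted p under 0.05, 22 of the 46 were lower (47.8%) and 0 higher, against 27.5% and 23.6% of all tested genes. The falls were moderate: the mean of a gene that passed was between 22.6% and 44.2% lower, with a median of 28.2%. The median log2 change over the 46 genes was -0.24, against -0.06 over all tested genes, and the changes ran from -0.83 to 0.15. Both libraries without doxycycline lay below both with it in 32 of the 46 genes and above both in 1, where 40.0% and 33.1% of all tested genes did so. Within the libraries numbered 0, 41 of the 46 genes were lower without doxycycline (median log2 change -0.27), and within those numbered 1, 38 were (median -0.21). Of all tested genes, 55.7% and 53.5% were lower within these numbers (medians -0.06 and -0.04). The library numbered 1 was the higher of its pair in 37 of the 46 genes with doxycycline and in 38 without, against 60.8% and 64.5% of all tested genes.

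**Figure D1:**
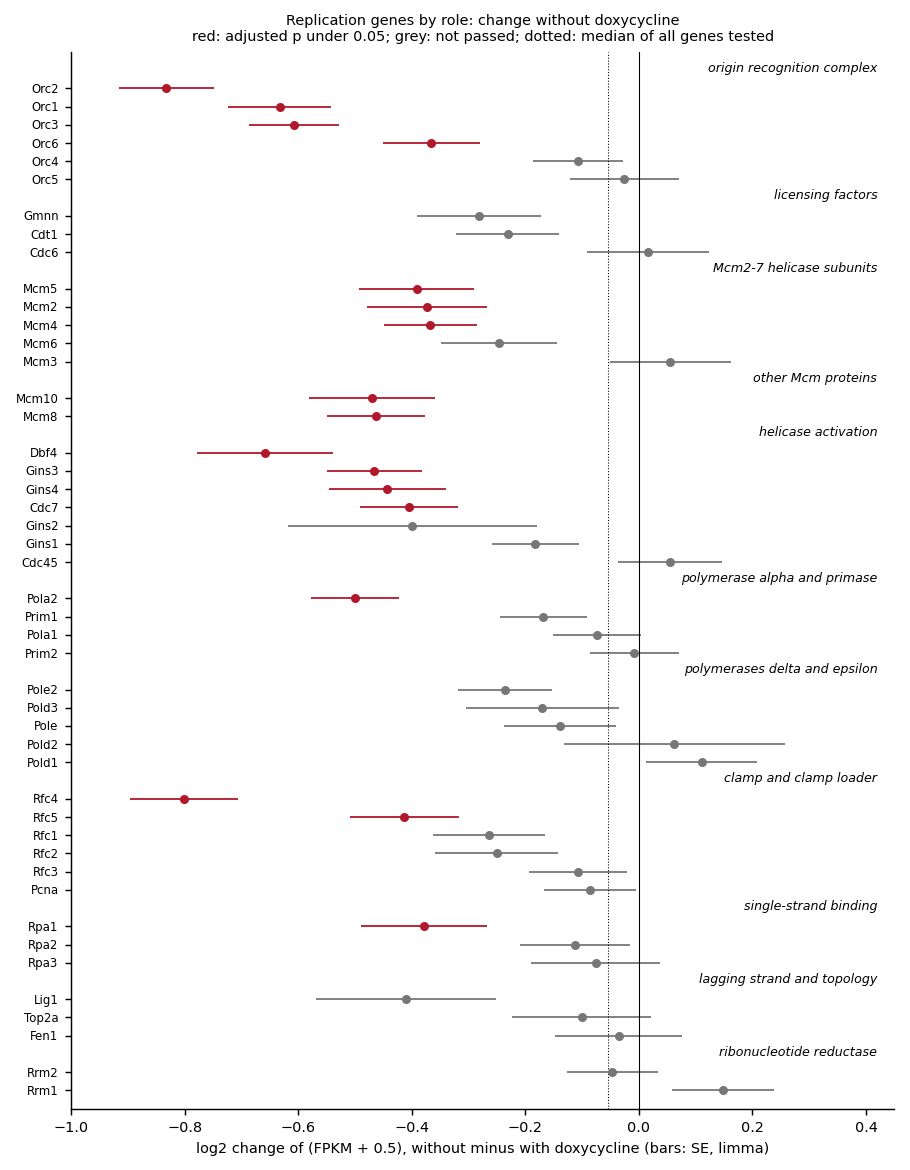
Log2 change (without minus with doxycycline, on the log2(FPKM + 0.5) scale) of each of the 46 genes, grouped by role, with bars of 1 SE; red points passed the limma threshold, grey points did not, and the dotted line marks the median of all tested genes. The 17 red points all lie below 0, the lowest at -0.83 (Orc2), and no gene above 0 passed.

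How many genes fall depends on the scale. Of the 46 changes, 40 were below 0 with FPKM as deposited, 28 with TPM over the isoforms used and 44 with the library medians set equal. The median of all tested genes itself moved between these scales, from -0.06 to 0.10 with TPM and to -0.12 with medians set equal, and the higher share of all calls was 48.2%, 67.7% and 37.9%. Each of these scales multiplies all genes of a library by 1 factor, so the distance of the 46 genes from the all-gene median (-0.19 as deposited) is nearly fixed by construction and is no sign of stability. The count of genes that fell was 17 as deposited, 10 with TPM (with 1 gene, Rrm1, higher) and 26 with medians set equal. Of all tested genes, 20.9%, 12.7% and 28.9% were lower on these scales, and 26.6% were higher with TPM. Each fit that left out a library passed fewer of the 46 genes as lower, and fewer of all tested genes. It also assumes that the lone library left varies like the others. Without the doxycycline library numbered 1, the share of the 46 genes that fell was under that of all tested genes. Without the doxycycline library numbered 0 it was near that share, and without the other library numbered 0 only somewhat above it. Only without the library numbered 1 off doxycycline did it stay well above. The median change of the 46 was -0.30 and -0.19 without the doxycycline libraries numbered 0 and 1 (all tested genes -0.08 and -0.03). Without the libraries numbered 0 and 1 off doxycycline it was -0.17 and -0.30 (all tested genes -0.01 and -0.08). Orc1, Orc2, Orc3 and Rfc4 passed in the same direction in all 13 alternatives, and 13 of the 17 did not pass in at least 1. With no filter on low values, Mcm2, Mcm5, Mcm10, Gins4, Rfc5 and Rpa1 did not pass (limma adjusted p from 0.0519 to 0.0943). In bulk RNA, fewer cells in S phase and less RNA per cell cannot be told apart.

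**Figure D2:**
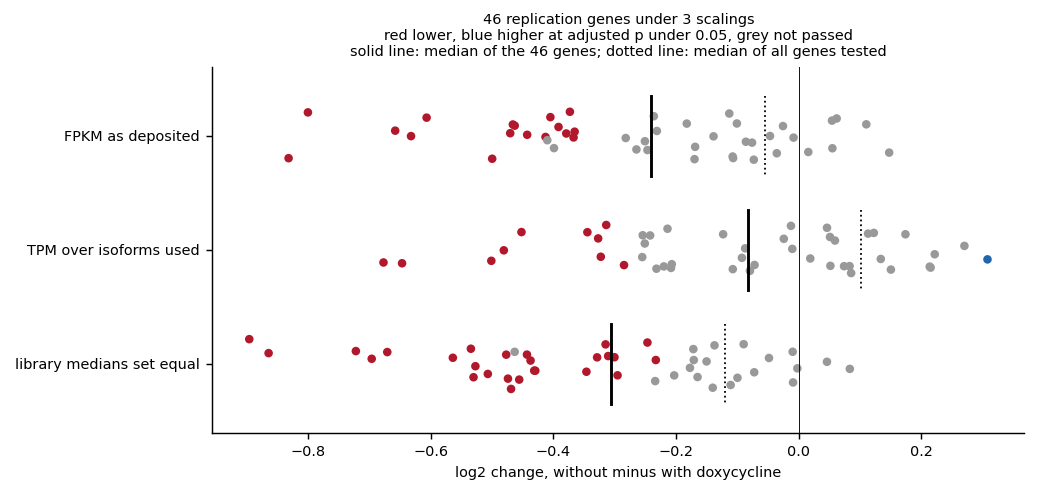
Log2 changes (without minus with doxycycline) of the 46 genes, 1 point each, on 3 scales, with red points lower, the blue point higher and grey points not past the threshold; solid lines mark the median of the 46 genes and dotted lines that of all tested genes. The median of the 46 genes moves from -0.24 to -0.08 with TPM and to -0.31 with medians set equal, and the median of all tested genes shifts with it.

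Counts by role rest on few genes each and stand against 20.9% of all tested genes lower. In the origin recognition complex, 4 of 6 subunits fell (66.7%), with a median change of -0.49. Orc2 (chromosome 1, 58519615 to 58561953, minus strand, build NCBIM37), a core subunit, measured 57.6 and 62.2 FPKM with doxycycline (libraries 0 and 1) and 33.4 in both libraries without. Its change of -0.83 (SE 0.08, limma adjusted p = 0.00332) was the largest of the 46 genes. Orc1 (chromosome 4, 108252015 to 108288633, plus strand), the ATPase subunit that in mammals is cleared from chromatin after G1, measured 26.2 and 28.9 FPKM with doxycycline and 17.1 and 18.1 without (change -0.63, SE 0.09, limma adjusted p = 0.0072). Orc3 (chromosome 4, 34514169 to 34562193, minus strand), the partner that holds Orc2 in the complex, measured 43.2 and 41.7 FPKM with and 27.2 and 28.1 without doxycycline (change -0.61, SE 0.08, limma adjusted p = 0.00572). In these 3 genes, picked for the size of their changes, both libraries without doxycycline lay well below both with it. Over the 13 alternatives the adjusted p of limma stayed at or under 0.0489 for Orc2, 0.0374 for Orc1 and 0.0341 for Orc3.

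Orc6, the smallest subunit, fell by less, from 76.8 ± 4.02 to 59.5 ± 1.54 FPKM (change -0.37, limma adjusted p = 0.0256), and its call was lost without any 1 of the 4 libraries (adjusted p from 0.0558 to 0.197), with TPM (0.0649), with isoforms of class = only (0.529) and with the most abundant isoform (0.547). Orc4 and Orc5, the other ATPase subunits, did not pass the test. Orc4 measured 39.3 ± 0.380 FPKM with and 36.4 ± 1.18 without doxycycline (change -0.11), and Orc5 measured 53.3 ± 4.95 and 52.3 ± 0.431 (change -0.03), with overlapping groups. With TPM the changes of these subunits were 0.05 and 0.13. The members of 1 complex thus spanned changes from -0.83 to -0.03 in the same libraries, and differences between them were not tested.

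**Figure D3:**
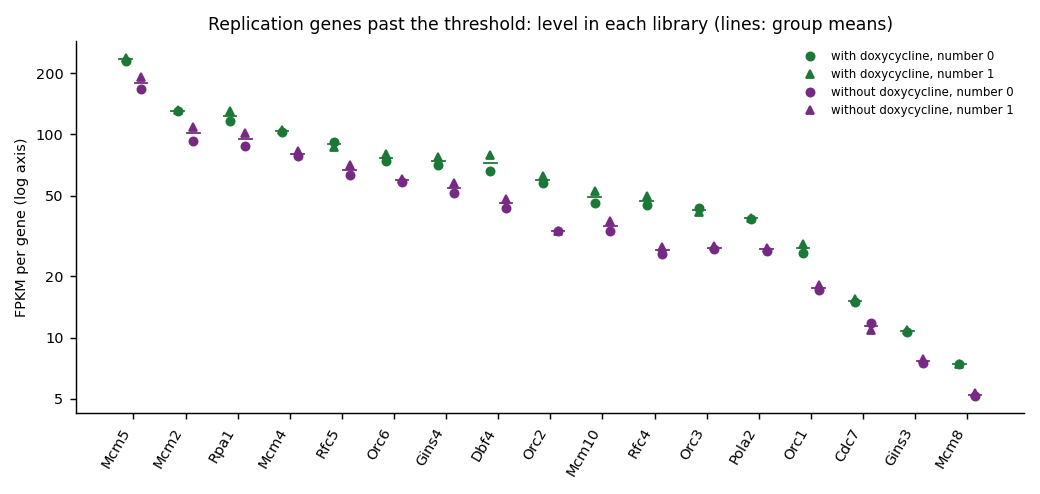
FPKM on a log axis in each of the 4 libraries for the 17 genes that fell, ordered by level, with doxycycline in green and without it in purple; circles and triangles are the libraries numbered 0 and 1, and lines are group means. The points of the 2 groups do not overlap in any of the 17 genes, from Mcm5 (234 FPKM with doxycycline) to Mcm8 (7.43). The genes were picked by the test on these same libraries, so the gap adds no support. Of all tested genes, 40.0% were lower without overlap.

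The licensing factors that work with the complex did not pass the test (0 of 3, median change -0.23). Cdc6, the ATPase that helps to load the helicase, measured 18.6 and 19.5 FPKM with doxycycline and 17.8 and 21.0 without, with overlapping groups (change 0.02, SE 0.11, limma adjusted p = 0.916). Cdt1, which brings the helicase to the origin, measured 97.1 and 98.6 FPKM with and 79.2 and 87.7 without doxycycline (change -0.23, SE 0.09, limma adjusted p = 0.0977). Geminin (Gmnn), the inhibitor of Cdt1, measured 72.4 and 83.5 FPKM with and 60.8 and 67.0 without (change -0.28, SE 0.11, limma adjusted p = 0.0957). Neither Cdt1 nor Gmnn overlapped between groups, at changes that did not pass.

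Of the 5 helicase subunits of the list, Mcm2, Mcm4 and Mcm5 fell, and the median change was -0.37. Mcm5 (chromosome 8, 77633427 to 77652338, plus strand, NCBIM37) had the highest level of the 46 genes, at 230.5 and 238 FPKM with doxycycline and 167 and 191 without (change -0.39, SE 0.10, limma adjusted p = 0.0344). Mcm2 (chromosome 6, 88833469 to 88848694, minus strand) measured 129.7 and 131 FPKM with and 93.1 and 109 without doxycycline (change -0.37, SE 0.11, limma adjusted p = 0.0424). Mcm4 (chromosome 16, 15622570 to 15637709, minus strand) measured 103 and 105 FPKM with and 78.2 and 82.6 without (change -0.37, SE 0.08, limma adjusted p = 0.0226). These 3 calls were lost without either doxycycline library and without the other library numbered 0 (limma adjusted p from 0.0822 to 0.184), and with TPM (0.0767 for Mcm2, 0.0618 for Mcm4 and 0.0519 for Mcm5).

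Mcm6, whose window holds 3 of the matches shown above, measured 104 ± 5.36 FPKM with and 87.6 ± 7.93 without doxycycline (change -0.25), without overlap, and did not pass. Mcm3, with its 2 matches after the start, measured 135 ± 7.495 and 140.2 ± 13.5 FPKM (change 0.06), with overlapping groups. The remaining subunit of the ring, Mcm7, stands outside the 46 genes, and its values were looked up after those of its partners were seen. It measured 211 and 233 FPKM with doxycycline and 196 and 249 without, with overlapping groups (change -0.00, limma adjusted p = 0.985). The subunits of the ring, which act in equal numbers, thus measured between 80.4 and 222 FPKM without doxycycline.

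Both other Mcm genes of the list fell (2 of 2, median change -0.47). Mcm10 (chromosome 2, 4910760 to 4933928, minus strand), which joins the helicase at the start of synthesis, measured 45.9 and 52.7 FPKM with and 33.3 and 37.5 without doxycycline (change -0.47, SE 0.11, limma adjusted p = 0.0263). Mcm8 (chromosome 2, 132641870 to 132669933, plus strand), a helicase of DNA repair, had the lowest level of the 46 genes, at 7.41 and 7.45 FPKM with and 5.14 and 5.37 without (change -0.46, SE 0.09, limma adjusted p = 0.0138). Both calls held with TPM. That of Mcm10 was lost without the doxycycline library numbered 1 (0.141) or the other library numbered 0 (0.0863), and that of Mcm8 without either doxycycline library or the other library numbered 0 (limma adjusted p from 0.0559 to 0.0651).

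Among the factors that turn the helicase on, 4 of 7 fell (median change -0.40). Dbf4 (chromosome 5, 8392379 to 8422780, minus strand), the activating subunit of the kinase that phosphorylates the loaded helicase, measured 66.2 and 79.0 FPKM with and 43.3 and 48.1 without doxycycline (change -0.66, SE 0.12, limma adjusted p = 0.0132). It passed in 11 of 13 alternatives and missed the threshold with the most abundant isoform alone (0.051) and without the doxycycline library numbered 1 (0.0573). Gins3 (chromosome 8, 98157428 to 98168410, plus strand), a GINS subunit, measured 10.7 and 10.9 FPKM with and 7.49 and 7.87 without (change -0.47, SE 0.08, limma adjusted p = 0.0127). Gins4 (chromosome 8, 24337082 to 24348140, minus strand) measured 70.4 and 77.6 FPKM with and 51.2 and 57.5 without (change -0.44, SE 0.10, limma adjusted p = 0.0249). For both subunits the call was lost without either doxycycline library or the other library numbered 0 (limma adjusted p from 0.0511 to 0.148).

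Cdc7, the kinase that Dbf4 activates, fell from 15.2 ± 0.441 to 11.4 ± 0.632 FPKM (limma adjusted p = 0.0205), a call lost without either doxycycline library or the other library numbered 1 (from 0.0715 to 0.112), with TPM (0.105), with isoforms of class = only (0.130) and with its top isoform alone (0.713), at a change of -0.11. The other GINS subunits did not pass: Gins1 measured 42.9 ± 0.708 FPKM with and 37.7 ± 0.273 without doxycycline (change -0.18), and Gins2 measured 47.7 ± 7.996 and 36.5 ± 10.1 (change -0.40), with overlapping groups. Cdc45, which joins GINS and the ring in the active helicase, measured 24.5 ± 1.73 and 25.5 ± 1.02 FPKM (change 0.05). Dbf4 was thus the firmer call of the kinase pair, and Cdc45 did not pass in either direction.

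In polymerase alpha and primase, which make the primers, 1 of 4 subunits fell (25%, near the 20.9% of all tested genes, median change -0.12). Pola2 (chromosome 19, 5940543 to 5964231, minus strand), the accessory B subunit, measured 38.4 and 38.8 FPKM with and 26.6 and 27.7 without doxycycline (change -0.50, SE 0.08, limma adjusted p = 0.009). Its call held with TPM and was lost without either doxycycline library (0.0512 and 0.0584). The catalytic subunits did not pass. Prim1, the catalytic primase subunit, measured 45.5 and 45.7 FPKM with and 40.0 and 40.9 without (change -0.17, SE 0.08, limma adjusted p = 0.137). Pola1, the catalytic polymerase subunit, measured 34.7 and 35.9 FPKM with and 33.3 and 33.8 without (change -0.07, SE 0.08, limma adjusted p = 0.483). Prim2, the large primase subunit, measured 25.4 ± 0.146 and 25.3 ± 0.702 FPKM (change -0.01).

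None of the 5 subunits of polymerases delta and epsilon passed (median change -0.14). Pole2, the second subunit of polymerase epsilon, had the largest change, with 30.3 and 29.8 FPKM with and 24.5 and 26.4 without doxycycline (change -0.24, SE 0.08, limma adjusted p = 0.0748). Pold3, an accessory subunit of polymerase delta, measured 25.0 and 30.7 FPKM with and 22.9 and 26.4 without, with overlapping groups (change -0.17, SE 0.13, limma adjusted p = 0.353). Pole, the catalytic subunit of polymerase epsilon, measured 29.99 and 31.1 FPKM with and 25.8 and 29.6 without (change -0.14, SE 0.10, limma adjusted p = 0.306). Pold1, the catalytic subunit of polymerase delta, measured 34.3 ± 1.85 and 37.1 ± 3.01 FPKM (change 0.11), and Pold2 63.1 ± 3.88 and 67.1 ± 18.2 (change 0.06). The wide spread of Pold2 comes from its 2 libraries without doxycycline, at 54.2 and 80.0 FPKM.

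Of the clamp and its loader, Rfc4 and Rfc5 fell (2 of 6, 33.3%, against 20.9% of all tested genes, median change -0.26). Rfc4 (chromosome 16, 23114016 to 23127810, minus strand), a small subunit of the loader, measured 45.0 and 49.5 FPKM with and 25.8 and 28.1 without doxycycline (change -0.80, SE 0.10, limma adjusted p = 0.00472). Its adjusted p stayed at or under 0.0305 in all 13 alternatives. Rfc5 (chromosome 5, 117828112 to 117839080, minus strand), another small subunit, measured 91.3 and 87.0 FPKM with and 63.0 and 70.9 without (change -0.41, SE 0.10, limma adjusted p = 0.0253), a call lost without either doxycycline library or the other library numbered 0 (from 0.0856 to 0.141) and with TPM (0.0566). Rfc1, the large subunit, measured 33.2 and 38.2 FPKM with and 29.4 and 29.8 without (change -0.26, SE 0.10, limma adjusted p = 0.0869).

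The other small subunits measured 52.1 ± 2.75 FPKM with and 43.8 ± 4.74 without doxycycline for Rfc2 (change -0.25) and 42.7 ± 0.879 and 39.6 ± 2.49 for Rfc3 (change -0.11). Pcna, the clamp itself and the gene with the second highest level of the 46, measured 188 ± 1.73 and 177 ± 0.533 FPKM (change -0.09), without overlap between groups, and did not pass. The loader subunits thus ranged from -0.80 to -0.11 although they act in 1 complex with the same clamp. Differences between them were not tested. With isoforms of class = only, the change of Rfc1 was -1.30 (limma adjusted p = 0.421), the lowest of the loader subunits in that fit.

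Replication protein A, which coats single-stranded DNA, has 3 subunits, of which 1 fell (33.3%, against 20.9% of all tested genes, median change -0.11). Rpa1 (chromosome 11, 75111668 to 75161886, minus strand), the large subunit, measured 117 and 129 FPKM with and 88.0 and 101 without doxycycline (change -0.38, SE 0.11, limma adjusted p = 0.0469). This call, the closest to the threshold of the 17, was lost without either doxycycline library or the other library numbered 0 (from 0.103 to 0.248) and with TPM (0.0694). Rpa2 measured 68.6 and 73.6 FPKM with and 62.1 and 69.4 without (change -0.11, SE 0.10, limma adjusted p = 0.388), and Rpa3 measured 44.5 and 44.0 with and 46.1 and 38.2 without (change -0.08, SE 0.11, limma adjusted p = 0.619). The groups of both overlapped.

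The enzymes of the lagging strand and of DNA topology did not pass (0 of 3, median change -0.10). DNA ligase 1 (Lig1), which seals Okazaki fragments, had the largest change of these, with 106 and 136 FPKM with and 82.6 and 98.6 without doxycycline (change -0.41, SE 0.16, limma adjusted p = 0.0944). Topoisomerase 2 alpha (Top2a), which untangles the daughter strands, measured 149.9 and 175 FPKM with and 141 and 162 without, with overlapping groups (change -0.10, SE 0.12, limma adjusted p = 0.541). The flap nuclease Fen1 measured 24.5 and 24.8 FPKM with and 21.9 and 26.3 without, again overlapping (change -0.04, SE 0.11, limma adjusted p = 0.815). The change of Lig1 was about the size of those of Cdc7 and Rfc5, with a larger SE.

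Ribonucleotide reductase, which makes deoxynucleotides from ribonucleotides, gave no call in its S-phase form (0 of 2, median change 0.05). Its large subunit Rrm1 measured 96.1 and 102 FPKM with and 105 and 114 without doxycycline, the only one of the 46 genes with both libraries without the drug above both with it (change 0.15, SE 0.09, limma adjusted p = 0.239). It passed as higher with TPM (0.0184). Its small subunit Rrm2 measured 121 and 117 FPKM with and 115 and 114 without (change -0.05, SE 0.08, limma adjusted p = 0.667).

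Ordered by level with doxycycline, the 46 genes ran from Mcm8 at 7.43 FPKM to Mcm5 at 234, with a median of 48.5, where the median of all tested genes was 11.1. Mcm5 was followed by Pcna (188), Top2a (163), Mcm3 (135) and Mcm2 (130.5). The difference between Mcm3 and Mcm2 was within the spread of Mcm3, and that between Mcm5 and Pcna was larger than the spread of either. At the low end stood Cdc6 (19.1), Cdc7 (15.2), Gins3 (10.8) and Mcm8 (7.43). The genes that fell lay at both ends of this order.

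Other genes of replication were read from lists of their own. Of 23 other fork factors, 5 fell (21.7%, near the 20.9% of all tested genes) and none rose (median change -0.18). Tipin, which with Timeless steadies the moving fork, measured 111 and 124 FPKM with and 65.8 and 73.2 without doxycycline (change -0.75, limma adjusted p = 0.00672). Top1, which relaxes the DNA ahead of the fork, fell from 62.0 ± 4.71 to 45.4 ± 0.988 FPKM (change -0.44, limma adjusted p = 0.0184), and Pole3, a histone-fold subunit of polymerase epsilon, from 18.9 ± 1.46 to 14.7 ± 0.139 (change -0.35, limma adjusted p = 0.0335). Ticrr and Wdhd1 also fell. Of 8 checkpoint genes, 3 fell (37.5%, against 20.9% of all tested genes) and none rose (median change -0.28). A single gene moves the share of a list this short by much. Those that fell were Rad17, which loads the checkpoint clamp (change -0.41, limma adjusted p = 0.0139), Hus1, part of that clamp (change -0.34, limma adjusted p = 0.0237), and Atrip. The kinase Atr, with a change of -0.36, did not pass (limma adjusted p = 0.0606). Tipin passed in all 13 alternatives. The count of fork factors that fell dropped in each fit that left out a library, as did the share of all tested genes. It was 2 with TPM, which also gave 2 that rose. In that fit 12.7% of all tested genes were lower and 26.6% higher. The count of checkpoint genes that fell also dropped in each fit that left out a library, and was 0 with TPM.

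Of 9 genes of chromatin assembly at forks, 3 fell and 1 rose (median change -0.16). These are 33.3% and 11.1% of a short list, against 20.9% and 19.4% of all tested genes. Nasp, a histone chaperone, measured 329 and 384 FPKM with and 186 and 204 without doxycycline (change -0.87, limma adjusted p = 0.00613). The paralogs Asf1a and Asf1b, which hand histones on to the fork, moved in opposite directions: Asf1a fell from 34.9 ± 3.33 to 21.9 ± 0.992 FPKM (change -0.66, limma adjusted p = 0.00845), and Asf1b rose from 26.9 ± 0.363 to 34.96 ± 2.11 (change 0.37, limma adjusted p = 0.0243). Of 14 other genes of nucleotide supply, 7 fell (50%) and 1 rose (7.14%), against the same shares of all tested genes (median change -0.28). Shmt1, which feeds thymidylate synthesis, measured 73.4 and 75.3 FPKM with and 38.7 and 44.4 without (change -0.84, limma adjusted p = 0.0047), and Dut, which removes dUTP, 123 and 142 with and 74.3 and 81.4 without (change -0.76, limma adjusted p = 0.00724). Others that fell included Dtymk, Umps, Ctps and Impdh2. The gene that rose was Rrm2b, the small reductase subunit that is used outside S phase, from 2.39 and 2.87 FPKM to 6.06 and 4.76 (change 0.91, limma adjusted p = 0.0105), while Rrm2 did not pass. Asf1a, Shmt1 and Rrm2b passed in all 13 alternatives, and Nasp and Dut in each that left out a library. The rise of Asf1b was lost without either doxycycline library (limma adjusted p = 0.134 and 0.119) and without the other library numbered 1 (0.0816). Fewer of the nucleotide genes fell without either doxycycline library, as did fewer of all tested genes.

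Of 9 genes that end licensing or remove its factors, 2 fell (22.2%, again near the 20.9% of all tested genes) and none rose (median change -0.02, above that of all tested genes). Fbxo5, the inhibitor of the anaphase-promoting complex that protects geminin, measured 43.0 and 44.9 FPKM with and 28.9 and 30.3 without doxycycline (change -0.56, limma adjusted p = 0.00723). Cul4b, the scaffold of a ligase that marks Cdt1 for breakdown, fell from 131 ± 1.68 to 98.0 ± 0.296 FPKM (change -0.42, limma adjusted p = 0.0146). Fzr1, an activator of the anaphase-promoting complex, had a change of 0.29 and did not pass (limma adjusted p = 0.17). Fbxo5 passed in each fit that left out a library, and Cul4b did not without the doxycycline library numbered 0 (0.115) or 1 (0.103).

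The gene values are sums over assembled isoforms, and 38 of the 46 genes had 2 or more isoforms of at least 1 FPKM, up to 11. In 18 genes 1 isoform held over 90% of the level with doxycycline, and in 6 none held over 50%. The fall of Rfc4 lay in 1 isoform of 1228 nt, at 41.1 and 47.6 FPKM with and 23.1 and 26.8 without doxycycline, which was 93.9% of the gene with the drug and 92.8% without. In Orc2 more than 1 isoform averaged lower: the 3561-nt form measured 31.7 and 27.4 FPKM with and 20.5 and 19.4 without, and a 1587-nt form averaged 7.93 and 1.85 FPKM. The 3014-nt form of Orc1 averaged 24.1 and 15.4 FPKM.

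In Lig1 and Gins2 the isoforms went different ways. The main 3173-nt form of Lig1 measured 42.6 and 35.2 FPKM with and 41.7 and 48.4 without doxycycline (log2 change 0.21), and a 3171-nt form measured 15.3 and 25.8 with and 5.86 and 8.73 without (change -1.41). The full 3900-nt form of Gins2 measured 19.7 and 19.2 FPKM with and 22.8 and 22.2 without (change 0.20), and a 511-nt form 19.1 and 31.1 with and 4.14 and 19.9 without (change -1.36). In Orc6 the assignment differed by library number, since an isoform of 1180 nt measured 20.8 and 19.0 FPKM in the libraries numbered 0 and was listed at 0 in those numbered 1. How reads were shared among isoforms this similar is uncertain, and their changes were not tested. With the most abundant isoform alone, where 7.81% of all tested genes were lower, 5 of the 46 genes fell: Orc1, Orc2, Orc3, Rfc4 and Rfc5. The other 12 calls were lost (limma adjusted p from 0.051 to 0.713). With isoforms of class = only (those that match a named transcript in full) 7 genes fell, the same without Rfc5 and with Mcm4, Dbf4 and Gins3. Of all tested genes, 10.5% were lower in that fit.

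**Figure D4:**
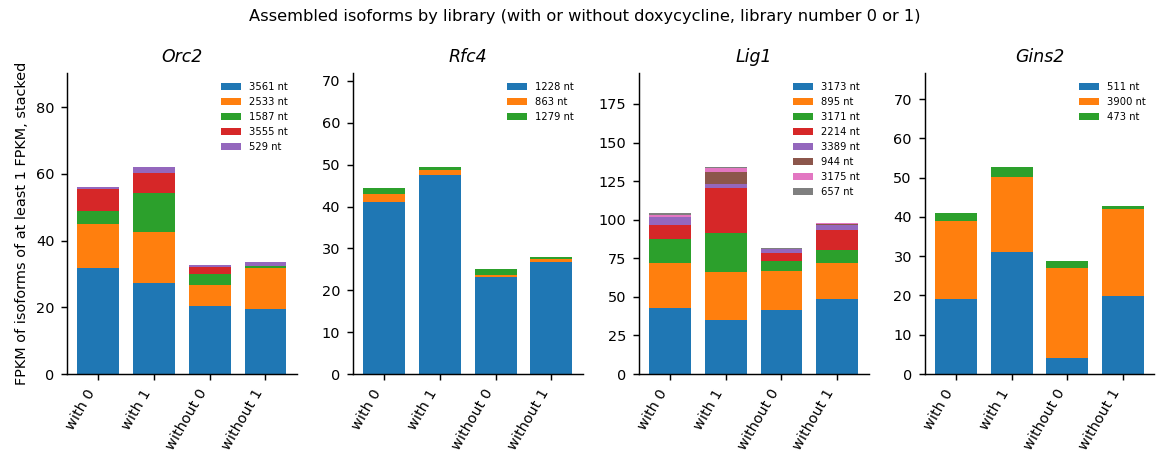
Stacked FPKM of the isoforms of at least 1 FPKM in each of the 4 libraries for Orc2, Rfc4, Lig1 and Gins2, with colours for isoform lengths. Nearly all of Rfc4 is its 1228-nt form in every library, whereas the 511-nt form of Gins2 runs from 4.14 to 31.1 FPKM beside a 3900-nt form that lies between 19.2 and 22.8.

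Because Ago2 acts through microRNAs, the annotated 3′ ends of the 46 genes were searched for sites of 3 microRNA families: that of miR-291a-3p, which belongs to the cluster most abundant in mouse embryonic stem cells, that of miR-17-5p, whose seed is the same shifted by 1 base, and let-7, which rises as these cells differentiate. Their mature sequences from RefSeq are shown with the seed, bases 2 to 8, in capitals.
mmu-miR-291a-3p: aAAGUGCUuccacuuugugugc
mmu-miR-17-5p: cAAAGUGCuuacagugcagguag
mmu-let-7a-5p: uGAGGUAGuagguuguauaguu

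A site pairs with the seed (7mer-m8), with bases 2 to 7 followed by A (7mer-A1), with both features (8mer), or with bases 2 to 7 alone (6mer), and each gene was given its best site. The 3′ untranslated regions of the 46 genes in GENCODE were short, with a median of 602 bases against 1323 over the 11508 tested genes with such a region. For the miR-291a-3p family, none of the 46 genes held an 8mer (against 3.68% of tested genes), 4 held a 7mer-m8 (8.70%, against 14.7%), 4 a 7mer-A1 (8.70%, against 3.35%), 5 a 6mer and 33 no site (71.7%, against 65.5%). The median change of the 33 genes without a site was -0.28, and those with a 7mer-m8 and a 7mer-A1 had medians of -0.18 and -0.17. The 5 with a 6mer had a median of -0.05. Over all tested genes the median was 0.21 for an 8mer, 0.06 for a 7mer-m8, 0.06 for a 7mer-A1, 0.05 for a 6mer and -0.07 without a site. The 7mer-m8 sites are shown with the bases that match the seed in capitals, as DNA along the transcript.
Cdc6: gacttttatgcctgtgatcccAGCACTTgg
Gins3: agaagatcaatgtgcggattgAGCACTTga
Rfc2: ggggagcccgcctttaatcccAGCACTTgg
Rpa2: ggctacagctcacagtagtaaAGCACTTgc

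The sites of Cdc6 and Rfc2 lie in the same run of letters (atcccAGCACTTgg), which the B1 family of mouse repeats is known to carry. Of these 4 genes only Gins3 passed the test, and it fell. For miR-17-5p the only 8mer was in Mcm3, which did not pass (change 0.06), and a 7mer-m8 stood in Orc2, the gene with the largest fall, as well as in Rpa2 and Rrm2. For let-7a-5p the only 8mer was in Rrm2 (change -0.05), and Dbf4, which fell, and Pold3 held a 7mer-m8. These sites are shown in the same way, the first pair for miR-17-5p and the second for let-7a-5p.
Mcm3: gtttttacccccacccccagGCACTTTAgt
Orc2: taacatgaaacctgctggtctGCACTTTgc
Rrm2: gtgtctaaaaagctgtgtagCTACCTCAgt
Dbf4: ccagagcaggagtatgcacagCTACCTCtg

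Of the 4 genes that fell in all 13 alternatives, Orc1, Orc3 and Rfc4 had no site for the miR-291a-3p family and Orc2 had a 6mer. A match describes the letters of the annotated region only, and whether any of these sites is used was not tested.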

How the data were processed

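PolyA RNA of 2 libraries with and 2 without doxycycline was analysed. The authors deposited FPKM values per isoform, made with TopHat2 2.0.9 and Cufflinks 2.1.1 on NCBIM37, per the submitters' processing notes. Isoforms of at least 200 nt that matched or shared a junction with a named transcript, per the deposited Cuffmerge annotation, were summed per gene (141569 of 181027 isoforms). Symbols came from the transcript identifier, the file's symbol or an older symbol, and 25 symbols turned into dates were restored from the other deposited table. Coordinates count from 1.

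Values were taken as log2(FPKM + 0.5), genes averaging 1 FPKM or more in 1 of the conditions were kept, and limma 3.58.1 with a trended prior (degrees of freedom: 2 residual, 3.10 prior) was run in R 4.3.3 after it had been tested on simulated data. The smallest p of an exact permutation test at 2 against 2 is 0.333. Fold changes on this scale understate low genes. The library numbers in the files could not be matched to the labels' replicate numbers, so libraries were not paired. The 46 genes, the lists and the microRNAs were chosen with earlier results of these data known. All 46 are named. The 3 largest changes of each role get values in every library, and of each other list the 3 largest changes are named, with others named after their values were seen. Seed sites were searched in the longest region per symbol of GENCODE release M21 and E2F sites in RefSeq windows, for letters only. The 13 alternatives changed the pseudocount, filter, scale, isoforms, block or libraries. Other steps and plots used Python 3.11.15, pandas 2.3.3, numpy 2.4.6 and matplotlib 3.10.9.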

Additional observations from a re-analysis of the deposited data

How the results depend on the processing

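Of 598 values (46 genes under 13 alternatives), 471 kept their direction and side of the threshold, 71 lost the call, 23 gained it and 33 changed sign, the last in genes that had not passed. The 17 genes that fell became 11 with no filter on low values, 10 with TPM, 26 with library medians set equal, 5 with the most abundant isoform, 7 with isoforms of class = only and 28 with the replicate block, and 4 to 16 when 1 library was left out. The 0 that rose became 1 with TPM and 1 with the block, where 26.6% and 27.2% of all tested genes were higher. The median of the 46 changes moved to -0.083 with TPM. Over all genes, 5351 calls became 2023 with the most abundant isoform, 2565 with class = only, 8123 with the block and 3065 to 4197 without 1 library. Libraries with the same number deviated together over all genes (r = 0.46, across genes, which are not independent replicates) and over the 46 (r = 0.49), but with 2 pairs and no label the numbers were not taken as pairing.

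With TPM the changes became 0.052 for Orc4, 0.13 for Orc5, 0.086 for Pola1, 0.15 for Prim2, 0.019 for Pole, 0.074 for Pcna, 0.051 for Rfc3, 0.046 for Rpa2, 0.083 for Rpa3, 0.12 for Fen1, 0.059 for Top2a, 0.11 for Rrm2 and 0.16 for Mcm7. With medians set equal they became -0.048 for Cdc6, -0.0090 for Mcm3, -0.0097 for Cdc45 and -0.0020 for Pold2. With the most abundant isoform they became 0.016 for Orc5, 0.20 for Gins2 and 0.21 for Lig1, and with class = only 0.018 for Orc5, -0.067 for Cdc6 and 0.035 for Mcm7. Leaving out 1 library gave ranges of -0.016 to 0.13 for Cdc45, -0.10 to 0.13 for Cdc6, -0.17 to 0.094 for Fen1, -0.043 to 0.15 for Mcm3, -0.17 to 0.17 for Mcm7, -0.12 to 0.069 for Orc5, -0.22 to 0.34 for Pold2, -0.036 to 0.020 for Prim2, -0.21 to 0.059 for Rpa3 and -0.21 to 0.011 for Top2a. The cause of these moves was not tested. The depth of the libraries numbered 0 is unknown, so no interval for counting error could be given there.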
